A study of Homo sapiens with 12 samples.

Results

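The 9 genes described here encode enzymes of the pentose phosphate pathway and enzymes that make or supply NADPH. They were chosen by name, with earlier results of these data known, and were looked up by symbol in a table of 59577 genes, where all 9 were present. PGLS and PGD stand for the oxidative branch, RPIA, RPE, TKT and TALDO1 for the non-oxidative branch, ME1 and IDH1 for other cytosolic sources of NADPH, and NADK makes NADP+ from NAD+. Of these, PGD, ME1 and IDH1 reduce NADP+ to NADPH in their own reaction, so the set is a pathway with its NADPH suppliers and not a list of NADPH producers alone.

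RNA was sequenced from 12 samples of H1299, a human non-small cell lung cancer line that the labels name as lung adenocarcinoma. Normoxia (6 samples) was 21% O2, 5% CO2 and 74% N2. Hyperoxia (6 samples) was 60% O2, 5% CO2 and 35% N2 for 24 h in a gas incubator. No genotype, drug or other agent is named for either group. The labels do not say whether samples came from separate cultures, so the p-values rest on sample-to-sample spread that could be technical alone. In bulk RNA, fewer cells expressing a gene and less RNA per cell cannot be told apart.

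In the oxidative branch, glucose 6-phosphate is turned into ribulose 5-phosphate, and NADP+ is reduced on the way. The non-oxidative branch converts ribulose 5-phosphate into ribose 5-phosphate for nucleotides, and TKT and TALDO1 exchange carbon units between the pentose phosphates and intermediates of glycolysis. NADPH feeds glutathione reductase, thioredoxin reductase and lipid synthesis. Genes of these groups are known targets of NRF2, a transcription factor of the oxidative stress response that binds the antioxidant response element together with small MAF proteins.

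The promoters of the 3 genes that passed the test as higher (ME1, TKT and TALDO1) and of IDH1, which had the largest estimated decrease among the 9, are shown to set the genes' changes beside their sequence. Each line gives the 250 bases before the start site, 5′ to 3′ on the gene's strand, from RefSeq (GRCh38.p14). The capitals mark matches on either strand to TGACNNNGC, the core of the antioxidant response element, or to TGANTCA, the AP-1 site. The windows were chr6:83431052-83431301 on the minus strand for ME1, chr3:53256023-53256272 on the minus strand for TKT, chr11:747214-747463 on the plus strand for TALDO1 and chr2:208255072-208255321 on the minus strand for IDH1, which has 2 windows in the table and is shown by the one with a match.
ME1: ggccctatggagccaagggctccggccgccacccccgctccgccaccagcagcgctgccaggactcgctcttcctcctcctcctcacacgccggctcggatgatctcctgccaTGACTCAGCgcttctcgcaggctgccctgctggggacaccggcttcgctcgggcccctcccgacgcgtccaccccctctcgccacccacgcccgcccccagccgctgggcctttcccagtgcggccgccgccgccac
TKT: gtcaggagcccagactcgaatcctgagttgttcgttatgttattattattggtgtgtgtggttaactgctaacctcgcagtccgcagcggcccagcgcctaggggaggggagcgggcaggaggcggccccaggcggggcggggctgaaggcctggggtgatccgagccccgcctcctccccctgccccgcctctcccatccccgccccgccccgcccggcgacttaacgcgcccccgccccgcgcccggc
TALDO1: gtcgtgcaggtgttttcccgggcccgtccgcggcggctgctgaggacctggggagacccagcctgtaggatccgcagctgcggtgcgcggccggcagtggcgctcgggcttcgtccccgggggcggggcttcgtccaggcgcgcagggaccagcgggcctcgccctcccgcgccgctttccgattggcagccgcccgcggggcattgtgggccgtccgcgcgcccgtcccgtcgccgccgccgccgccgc
IDH1: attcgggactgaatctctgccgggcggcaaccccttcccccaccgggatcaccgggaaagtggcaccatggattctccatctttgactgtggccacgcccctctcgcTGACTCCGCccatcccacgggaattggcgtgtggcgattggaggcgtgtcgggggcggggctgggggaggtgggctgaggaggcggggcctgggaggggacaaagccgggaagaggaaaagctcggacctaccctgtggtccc

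The table gave 12 windows of 250 bases before and 50 after a start for the 9 genes. TGACNNNGC was found in windows of 4 of them (PGD, RPE, ME1 and IDH1), and 16.06% of the 27305 genes with a window held it. In ME1 the letters TGACTCAGC lay at -137 to -129 from the start, and the AP-1 match TGACTCA at -137 to -131 overlapped them. A further ME1 match lay after the start, at 12 to 20, on the other strand. IDH1 held TGACTCCGC at -143 to -135, RPE held TGACAGCGC at -151 to -143, and PGD held a match on the other strand at -201 to -193. ME1 was the only one of the 9 with TGANTCA, which 9.37% of genes held. Neither motif was in the windows of TKT, TALDO1, PGLS, RPIA or NADK. Of the 3 genes called higher, 1 thus had a match to these letters, and of the 6 others, 3 had one. A match is a description of the letters only, and its absence says nothing beyond this window. GC content of the members' windows ran from 48.0% to 75.0%, beside a median of 58.7% over all windows.

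Transcript levels are TPM (transcript abundance scaled per gene length to a common total) as deposited, and changes are differences of log2(TPM + 1), hyperoxia minus normoxia. They were tested with limma, with Benjamini-Hochberg adjustment over the 14520 genes with a mean of at least 1 TPM, and a gene was called at an adjusted p below 0.05. All 9 members passed that minimum. Between 14275 and 14635 genes per sample reached 1 TPM, and read depth is unknown because TPM does not keep it. Of the marker genes of this cell type, 4 of 7 epithelial markers and 4 of 4 mesenchymal markers reached a mean of 1 TPM. Among the epithelial ones KRT8 and KRT18 were the most abundant, and KRT7 and CLDN4 had means of 3.65 and 2.33 TPM. KRT19, EPCAM and CDH1 were below the minimum, at 0.21, 0.17 and 0.03 TPM. The mesenchymal marker VIM had a mean of 3178 TPM. The 6 lung alveolar and adenocarcinoma markers were all below 1 TPM, with a highest mean of 0.413 TPM. These samples thus do not show the defining markers of the labelled lung adenocarcinoma. Among the markers of other cell types, 1 of 12 reached 1 TPM, COL1A1 at 1.08 TPM. The summed level of that list ran from 1.53 to 2.42 TPM in normoxia and from 1.0 to 2.9 TPM in hyperoxia.

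Of the 9 genes, 3 were called higher in hyperoxia (TKT, TALDO1 and ME1), 0 were called lower and 6 did not pass. Over all tested genes 17.3% were called, 11.7% higher and 5.63% lower. The median log2 change of the 9 was 0.05, beside 0.03 over all tested genes. By limma, 5 of the 9 had an unadjusted p below 0.05. The share of all tested genes below that unadjusted threshold was not counted, so no excess can be read from it. The ranges of the groups did not overlap in 2 genes, TKT and TALDO1, which were higher in hyperoxia in all 6 samples. The groups were separate in 8.78% of all tested genes, 6.2% with hyperoxia higher and 2.58% with hyperoxia lower. The share of called genes that were higher was 67.5% here, 50% after median-of-ratios scaling, 47.4% after upper-quartile scaling and 54.3% after quantile normalisation. Under each of these 3 scalings TKT, TALDO1 and ME1 were again called higher and IDH1 was called lower.

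**Figure D1:**
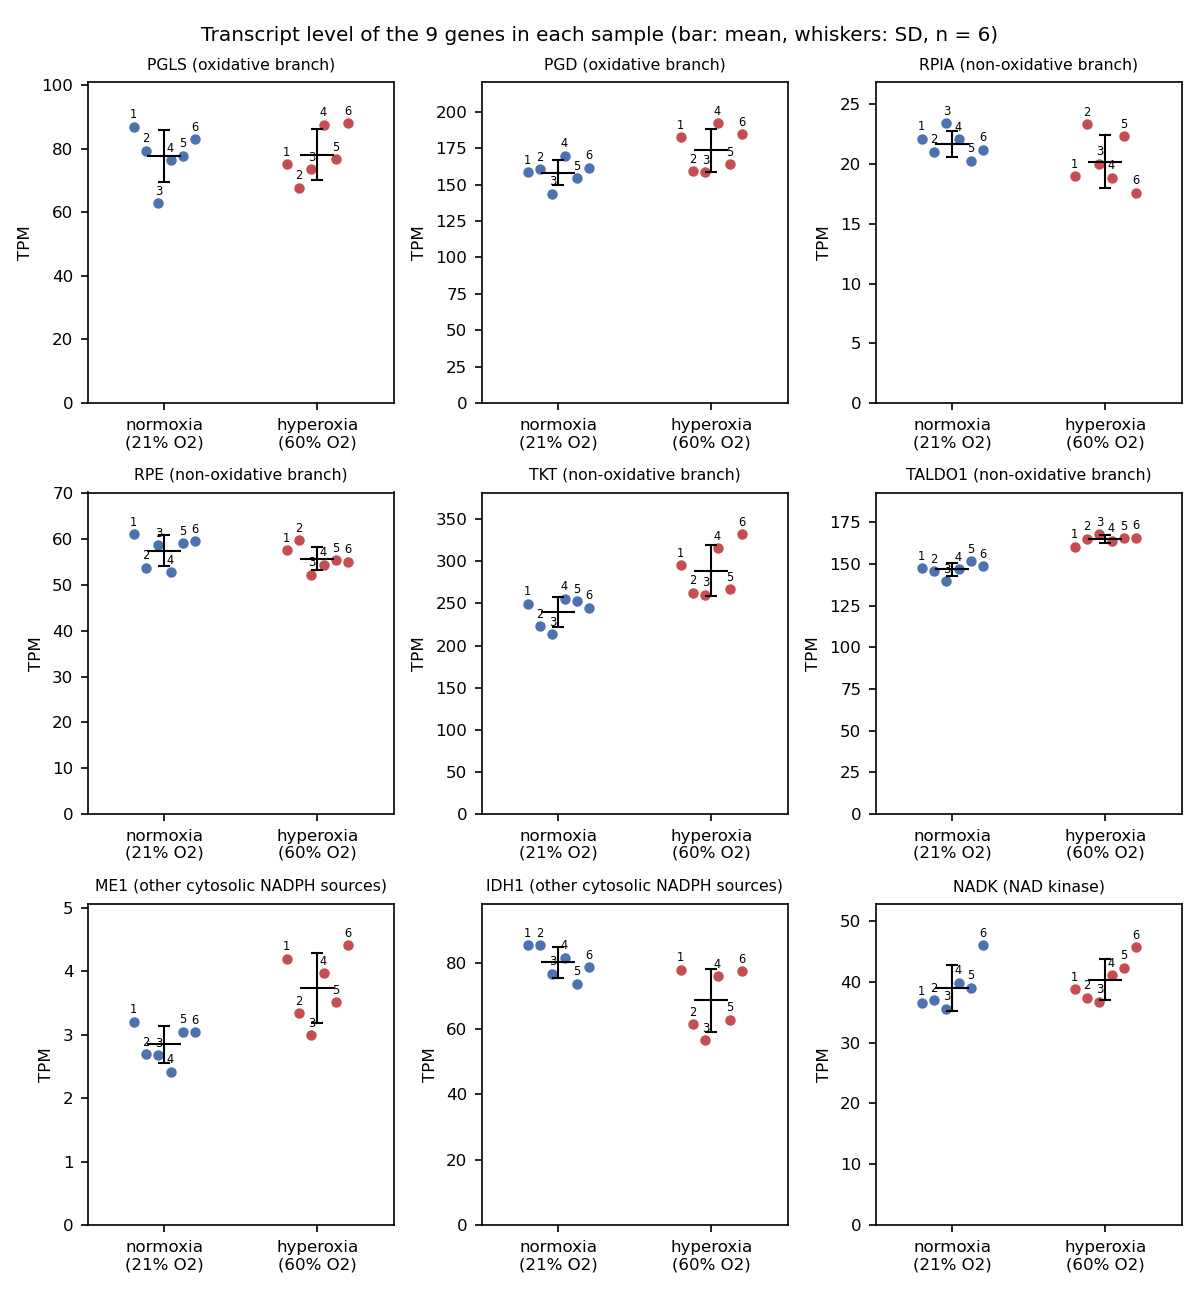
TPM (vertical axis, from 0) of each of the 9 genes in the 6 normoxia and 6 hyperoxia samples. Small digits give the replicate number, the horizontal bar the mean and the whiskers the SD; TKT and TALDO1 are the 2 panels in which the groups do not overlap, and in IDH1 the 6 hyperoxia points lie below the normoxia mean.

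In the oxidative branch neither gene passed the test. PGLS (ENSG00000130313), the lactonase that opens the ring of 6-phosphogluconolactone, ran from 62.8 to 86.9 TPM in normoxia with a median of 78.6, and from 67.8 to 88.0 TPM in hyperoxia with a median of 75.9. The groups covered nearly the same range. Its log2 change was 0.01 ± 0.08 (SE, n = 6 per group; limma adjusted p = 0.964), with a 95% interval from -0.16 to 0.18.

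PGD (ENSG00000142657), the 6-phosphogluconate dehydrogenase that makes NADPH and ribulose 5-phosphate, ran from 143.7 to 169.8 TPM in normoxia with a median of 159.5. In hyperoxia it ran from 158.5 to 191.9 TPM with a median of 173.3. All 6 hyperoxia samples lay above the normoxia mean of 158.1 TPM, and 3 of them, replicates 1, 4 and 6, lay above the highest normoxia sample. The log2 change was 0.13 ± 0.06 (SE, n = 6 per group; limma adjusted p = 0.124), with a 95% interval from 0.01 to 0.25.

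In the non-oxidative branch the transferases TKT and TALDO1 were higher, while the values of the isomerase RPIA and the epimerase RPE lay slightly lower and did not pass. TKT (ENSG00000163931), the thiamine-dependent transketolase, ran from 213.4 to 255.5 TPM in normoxia with a median of 247.2, and from 260.6 to 331.9 TPM in hyperoxia with a median of 281.4. The lowest hyperoxia sample was above the highest normoxia sample. The mean was 1.20-fold higher, a log2 change of 0.26 ± 0.07 (SE, n = 6 per group; limma adjusted p = 0.0168). Hyperoxia replicates 1, 4 and 6 were the highest, at 295.6, 315.6 and 331.9 TPM, and replicates 2, 3 and 5 lay between 260.6 and 267.1 TPM. The change was not called when normoxia samples 4 to 6 alone stood for the control (log2 change 0.20, limma adjusted p = 0.161).

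TALDO1 (ENSG00000177156), the transaldolase that works beside TKT, was the least variable of the 9. It ran from 139.6 to 151.8 TPM in normoxia with a median of 147.3, and from 160.4 to 167.7 TPM in hyperoxia with a median of 165.4. The groups did not overlap, and the coefficient of variation was 2.75% in normoxia and 1.49% in hyperoxia. The mean was 1.12-fold higher, a log2 change of 0.17 ± 0.03 (SE, n = 6 per group; limma adjusted p = 0.00101). This was the smallest adjusted p of the 9, at a smaller fold than those of TKT and ME1, and the call was kept in each of the 26 alternative settings run.

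RPIA (ENSG00000153574), the ribose 5-phosphate isomerase, ran from 20.3 to 23.4 TPM in normoxia with a median of 21.7, and from 17.6 to 23.4 TPM in hyperoxia with a median of 19.5. Of the hyperoxia samples 4 lay below the lowest normoxia sample and the groups overlapped. Hyperoxia replicates 1, 4 and 6, the highest for TKT, were the lowest for RPIA. The log2 change was -0.10 ± 0.07 (SE, n = 6 per group; limma adjusted p = 0.312), with a 95% interval from -0.24 to 0.04.

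RPE (ENSG00000197713), the ribulose 5-phosphate epimerase, ran from 52.8 to 61.0 TPM in normoxia with a median of 58.9, and from 52.3 to 59.7 TPM in hyperoxia with a median of 55.2. The ranges overlapped almost fully. The log2 change was -0.04 ± 0.05 (SE, n = 6 per group; limma adjusted p = 0.562). In the authors' deposited table the fold change listed for RPE is 0.533, whereas the means listed in the same row, 57.5 and 55.7 TPM, have a ratio of 0.970. RPE was 1 of 78 rows in which deposited values disagree with each other, and no other member was among them.

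Among the other NADPH sources ME1 was higher and IDH1 had lower values. ME1 (ENSG00000065833), the cytosolic malic enzyme that makes pyruvate and NADPH from malate, ran from 2.42 to 3.21 TPM in normoxia with a median of 2.87, and from 2.99 to 4.41 TPM in hyperoxia with a median of 3.75. In hyperoxia 5 of 6 samples lay above the highest normoxia sample, and replicate 3 did not. The mean was 1.31-fold higher, the largest ratio among the 9 genes, and ME1 was the least abundant of them. The log2 change was 0.30 ± 0.09 (SE, n = 6 per group; limma adjusted p = 0.0400), on a scale that understates the change of a gene this low. The call was lost in 9 of the 12 fits that left out 1 sample, namely normoxia replicates 2 to 6 and hyperoxia replicates 1, 4, 5 and 6, with limma adjusted p from 0.0512 to 0.0803. It was lost by the exact permutation test (adjusted p = 0.0546) and without the minimum on TPM (limma adjusted p = 0.0988).

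IDH1 (ENSG00000138413), the cytosolic and peroxisomal isocitrate dehydrogenase that makes NADPH, ran from 73.8 to 85.5 TPM in normoxia with a median of 80.3. In hyperoxia it ran from 56.5 to 78.1 TPM with a median of 69.5. All 6 hyperoxia samples lay below the normoxia mean of 80.4 TPM. Replicates 2, 3 and 5, at 61.4, 56.5 and 62.8 TPM, lay below the lowest normoxia sample, while replicates 1, 4 and 6, at 78.1, 76.2 and 77.6 TPM, lay within the normoxia range. The log2 change was -0.23 ± 0.08 (SE, n = 6 per group; limma adjusted p = 0.0647), with a 95% interval from -0.41 to -0.06. IDH1 passed as lower after median-of-ratios scaling (limma adjusted p = 0.0209), and without hyperoxia replicate 1, 4 or 6 (limma adjusted p = 0.0414, 0.0487 and 0.0398). These replicates had the highest IDH1 values in hyperoxia, so leaving 1 of them out enlarges the decrease. Without hyperoxia replicate 2 or 3 it did not pass (limma adjusted p = 0.132 and 0.122). IDH1 was called in 8 of the 26 settings, and its highest limma adjusted p among them was 0.308. Its antisense neighbour IDH1-AS1 had mean levels of 0.843 TPM in normoxia and 1.33 TPM in hyperoxia. Whether reads of the pair were counted by strand is not given in the sources used here.

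NADK (ENSG00000008130), the cytosolic NAD kinase that sets the supply of NADP+, ran from 35.6 to 46.0 TPM in normoxia with a median of 38.0, and from 36.7 to 45.7 TPM in hyperoxia with a median of 39.9. The hyperoxia range lay inside the normoxia range. The log2 change was 0.05 ± 0.07 (SE, n = 6 per group; limma adjusted p = 0.673).

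**Figure D2:**
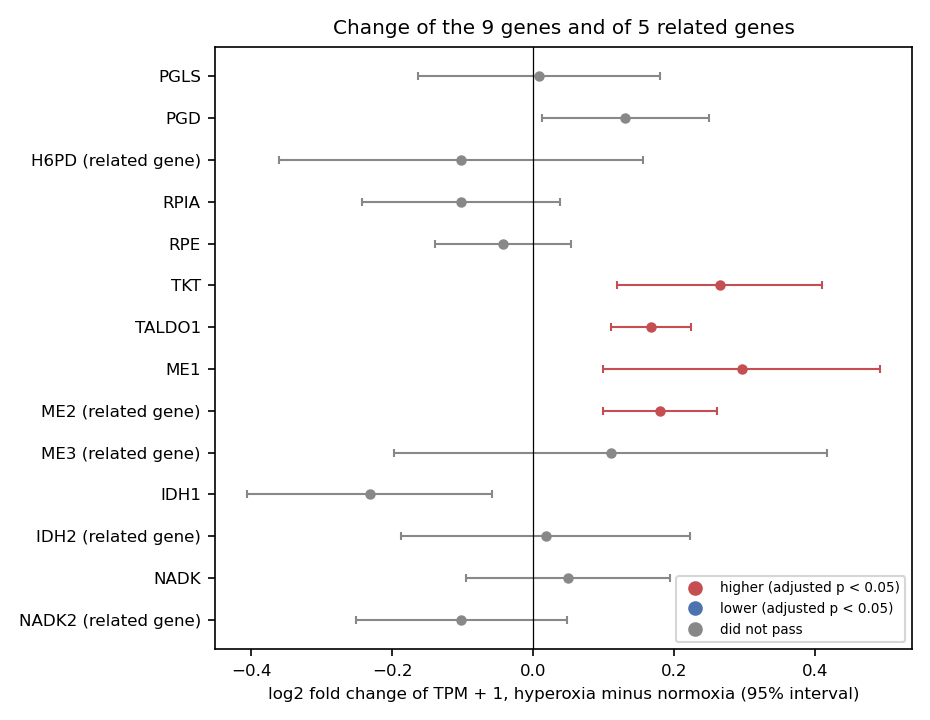
Log2 change of TPM + 1, hyperoxia minus normoxia (horizontal axis), with its 95% interval, for the 9 genes and 5 related genes (n = 6 per group). Red points passed the test as higher: TKT, TALDO1, ME1 and the related gene ME2; the IDH1 interval lies below 0 although its adjusted p is 0.0647.

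The authors' deposited table, which per the submitters' processing notes comes from edgeR, lists an adjusted p under 0.05 for 6 of the 9 genes. The share of all its genes under that threshold was not counted, so the 6 cannot be weighed against it. The authors' deposited table gives an adjusted p of 3.37e-08 for TKT, 0.000241 for TALDO1, 0.00225 for ME1 and 0.0227 for PGD, all with a fold above 1. For IDH1 the authors' deposited table gives a fold of 0.818 and an adjusted p of 0.000693, and for NADK a fold of 1.07 and an adjusted p of 0.0384. The authors' deposited table marks none of the 9 as changed, and the smallest absolute log2 fold among the genes it does mark is 1. PGD, IDH1 and NADK thus have an adjusted p under 0.05 in the authors' deposited table and not in the test on TPM used here.

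The order of the levels was nearly the same in both groups. In normoxia TKT was highest at 240 ± 17.5 TPM, followed by PGD at 158 ± 8.68, TALDO1 at 147 ± 4.04, IDH1 at 80.4 ± 4.73, PGLS at 77.7 ± 8.23, RPE at 57.5 ± 3.37, NADK at 39.0 ± 3.77, RPIA at 21.7 ± 1.09 and ME1 at 2.85 ± 0.30 TPM (mean ± SD, n = 6). The ranges over samples overlapped between PGD and TALDO1 and between IDH1 and PGLS, and did not overlap between the other neighbours. In hyperoxia the means were 289 ± 30.2 TPM for TKT, 173 ± 14.6 for PGD, 165 ± 2.46 for TALDO1, 78.1 ± 8.08 for PGLS, 68.8 ± 9.61 for IDH1, 55.7 ± 2.58 for RPE, 40.3 ± 3.40 for NADK, 20.2 ± 2.21 for RPIA and 3.74 ± 0.54 for ME1 (mean ± SD, n = 6). IDH1 and PGLS exchanged places, and the hyperoxia ranges overlapped between PGD and TALDO1, between PGLS and IDH1 and between IDH1 and RPE. TKT was 84.2-fold above ME1 in normoxia and 77.3-fold above it in hyperoxia. In mean level TKT stood above 96.5% of the tested genes and ME1 above 19.5%.

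The branches were compared by the summed TPM of their members in each sample, with no test, because the members were chosen with results of these data known. PGLS and PGD together came to 236 ± 15.2 TPM in normoxia and 252 ± 21.8 TPM in hyperoxia (mean ± SD, n = 6), with overlapping ranges. RPIA, RPE, TKT and TALDO1 together came to 466 ± 21.0 TPM in normoxia and 530 ± 27.5 TPM in hyperoxia, and the highest normoxia sample (484.1 TPM) was below the lowest hyperoxia sample (500.5 TPM). The log2 ratio of the oxidative to the non-oxidative sum was -0.98 ± 0.07 in normoxia and -1.08 ± 0.06 in hyperoxia, and the groups overlapped. TKT and TALDO1 carry most of the non-oxidative sum. When each branch was instead given by the median of its members' log2 values, the difference between the groups was 0.01 in place of -0.09.

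Ratios between single genes within a sample do not depend on how a sample was scaled. They were chosen after the values were seen and are a description. PGD over TKT was 0.661 ± 0.04 in normoxia and 0.602 ± 0.02 in hyperoxia, and the groups overlapped. IDH1 over PGD ran from 0.478 to 0.540 in normoxia and from 0.356 to 0.428 in hyperoxia, with no overlap. ME1 was 2.96% to 4.13% of the IDH1 level in normoxia and 5.21% to 5.68% in hyperoxia, again with no overlap. TKT over RPIA (9.12 to 12.5 in normoxia, 11.2 to 18.8 in hyperoxia) overlapped between the groups. TALDO1 over RPE (2.38 to 2.78 and 2.77 to 3.21) overlapped as well. Spread that both genes of a ratio share cancels in it. The share of all gene pairs whose ratio separates the groups was not counted, so no excess can be read from these ratios. IDH1 alone overlapped between the groups, as did ME1 and PGD. The level of IDH1 stayed well above that of ME1 in every sample, so most of the summed transcripts of the pair were IDH1, at 83.2 ± 4.71 TPM for the sum in normoxia and 72.5 ± 10.1 TPM in hyperoxia (mean ± SD, n = 6).

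**Figure D3:**
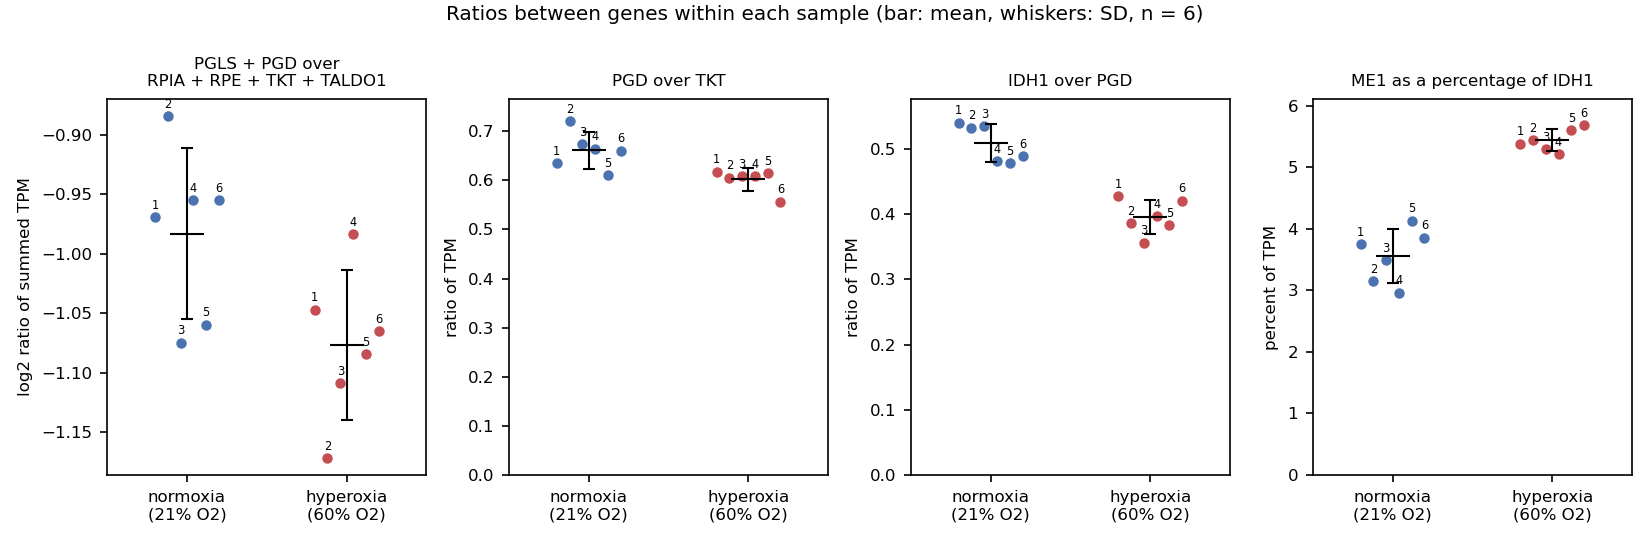
Ratios of TPM between genes in each of the 6 normoxia and 6 hyperoxia samples (digits: replicate numbers; bar: mean; whiskers: SD); the log2 panel does not start at 0. The groups overlap for the branch ratio and for PGD over TKT, and are separate for IDH1 over PGD and for ME1 as a percentage of IDH1, where all hyperoxia samples lie between 5.21% and 5.68%. The ratios between single genes were chosen after the values were seen, and the share of all gene pairs that separate was not counted.

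The hyperoxia samples differed among themselves in several of the 9 genes. Replicates 1, 4 and 6 were the 3 highest hyperoxia samples for PGD, TKT, ME1 and IDH1, that is for 4 of the 9. The same 3 replicates were the highest for 14% of all tested genes and the lowest for 4.78%. TALDO1, PGLS, RPE and NADK had other samples at the top, and for RPIA replicates 2, 3 and 5 were the highest. The labels give no batch or date, and whether this spread reflects handling was not tested.

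The copies of RPE, PGD and RPIA were near 0. RPEL1, a retrogene copy of RPE, was at or under 0.10 TPM in every sample, the pseudogenes RPEP1 to RPEP6 were at or under 0.24 TPM, and PGDP1 and RPIAP1 were listed at 0 in all samples. TKTL1, a transketolase-like gene, was listed at 0 in all 12 samples. IDH2, the mitochondrial counterpart of IDH1, had means of 5.19 TPM in normoxia and 5.26 TPM in hyperoxia (limma adjusted p = 0.927), against 80.4 and 68.8 TPM for IDH1. H6PD, an enzyme of the endoplasmic reticulum with dehydrogenase and lactonase activity, had means of 3.44 and 3.13 TPM (limma adjusted p = 0.611). The mitochondrial malic enzymes were more abundant than ME1, whose means were 2.85 and 3.74 TPM. ME3, the NADP-dependent one, had means of 26.5 and 29.1 TPM (limma adjusted p = 0.652), and ME2 had means of 49.2 and 55.8 TPM. NADK2, the mitochondrial NAD kinase, had means of 9.90 and 9.17 TPM (limma adjusted p = 0.349).

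Genes around the pathway were taken from 4 lists. Of 15 other pentose and ribose phosphate genes 11 were tested, 1 was called higher, 0 lower, and the median log2 change was 0.00. The one that rose was PGM2, a phosphopentomutase that links ribose 1-phosphate and ribose 5-phosphate. It ran from 44.1 to 50.2 TPM in normoxia and from 51.7 to 61.5 TPM in hyperoxia (limma adjusted p = 0.00440). The PRPP synthetases PRPS1 and PRPS2 and the ribose salvage enzymes RBKS and DERA did not pass.

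Of 13 other NADP-linked producers and kinases 12 were tested, 2 rose and 3 fell, with a median log2 change of 0.00. ME2, a mitochondrial malic enzyme that works mainly with NAD+, ran from 45.8 to 52.5 TPM in normoxia and from 53.1 to 57.9 TPM in hyperoxia (limma adjusted p = 0.00572). ALDH3A2, a fatty aldehyde dehydrogenase that uses NAD+, rose by 0.32 on the log2 scale (limma adjusted p = 0.00459). Both genes that rose thus encode enzymes that use NAD+ mainly. This does not set them apart from those that fell, as MTHFD2 also works mainly with NAD+ and MTHFD1L has no dehydrogenase activity. The 3 that fell encode mitochondrial enzymes of folate metabolism: MTHFD2 fell by 0.34 (limma adjusted p = 0.00346), MTHFD1L fell by 0.21 (limma adjusted p = 0.0118), and ALDH1L2, which makes NADPH and was named after its values were seen, fell by 0.49 on the log2 scale (limma adjusted p = 0.0132). MTHFD2L, the mitochondrial paralog of MTHFD2 in the same list, had means of 13.6 and 13.4 TPM and did not pass (limma adjusted p = 0.818). ALDH3A2 was not called against normoxia samples 1 to 3 alone (limma adjusted p = 0.0705), nor MTHFD1L against samples 4 to 6 alone (limma adjusted p = 0.0823).

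Of 9 genes of NAD synthesis 6 were tested, 2 rose and 0 fell, with a median log2 change of -0.05. NAMPT, the rate-limiting enzyme of NAD salvage, rose by 0.22 on the log2 scale (limma adjusted p = 0.0156). NMNAT1, the nuclear enzyme that completes NAD+, rose by 0.20 (limma adjusted p = 0.0142). Neither was called when 3 normoxia samples stood for the control. Against samples 1 to 3 the log2 change was 0.20 for NAMPT and 0.19 for NMNAT1 (limma adjusted p = 0.108 and 0.0842), and against samples 4 to 6 it was 0.24 and 0.21 (limma adjusted p = 0.0791 and 0.0626). Both enzymes act upstream of NADK, whose own change did not pass.

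All 22 genes listed as NADPH-using reductases were tested, 6 rose and 0 fell, with a median log2 change of 0.05. The list is loosely named. It also holds FASN, a synthase, SQLE, a monooxygenase, and CYB5R3, which uses mainly NADH, and none of these passed. NQO1, a quinone reductase, ran from 306.6 to 332.5 TPM in normoxia and from 574.7 to 646.1 TPM in hyperoxia, a log2 change of 0.92 ± 0.03 (SE, n = 6 per group; limma adjusted p = 8.49e-10). TXNRD1, the cytosolic thioredoxin reductase, rose by 0.88 on the log2 scale (limma adjusted p = 1.88e-08) and GSR, the glutathione reductase, by 0.76 (limma adjusted p = 7.27e-09). CBR1, a carbonyl reductase, rose by 0.26 (limma adjusted p = 0.00241). The other 2 that rose, CBR3 and PTGR1, were named after their values were seen. The changes of NQO1, TXNRD1 and GSR exceeded that of TKT, 0.26, in size, and a test between genes was not made. The count of genes of this list that fell depended on the scaling: it was 6 after median-of-ratios or upper-quartile scaling and 5 after quantile normalisation. The lists were written with earlier results of these data known.

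**Figure D4:**
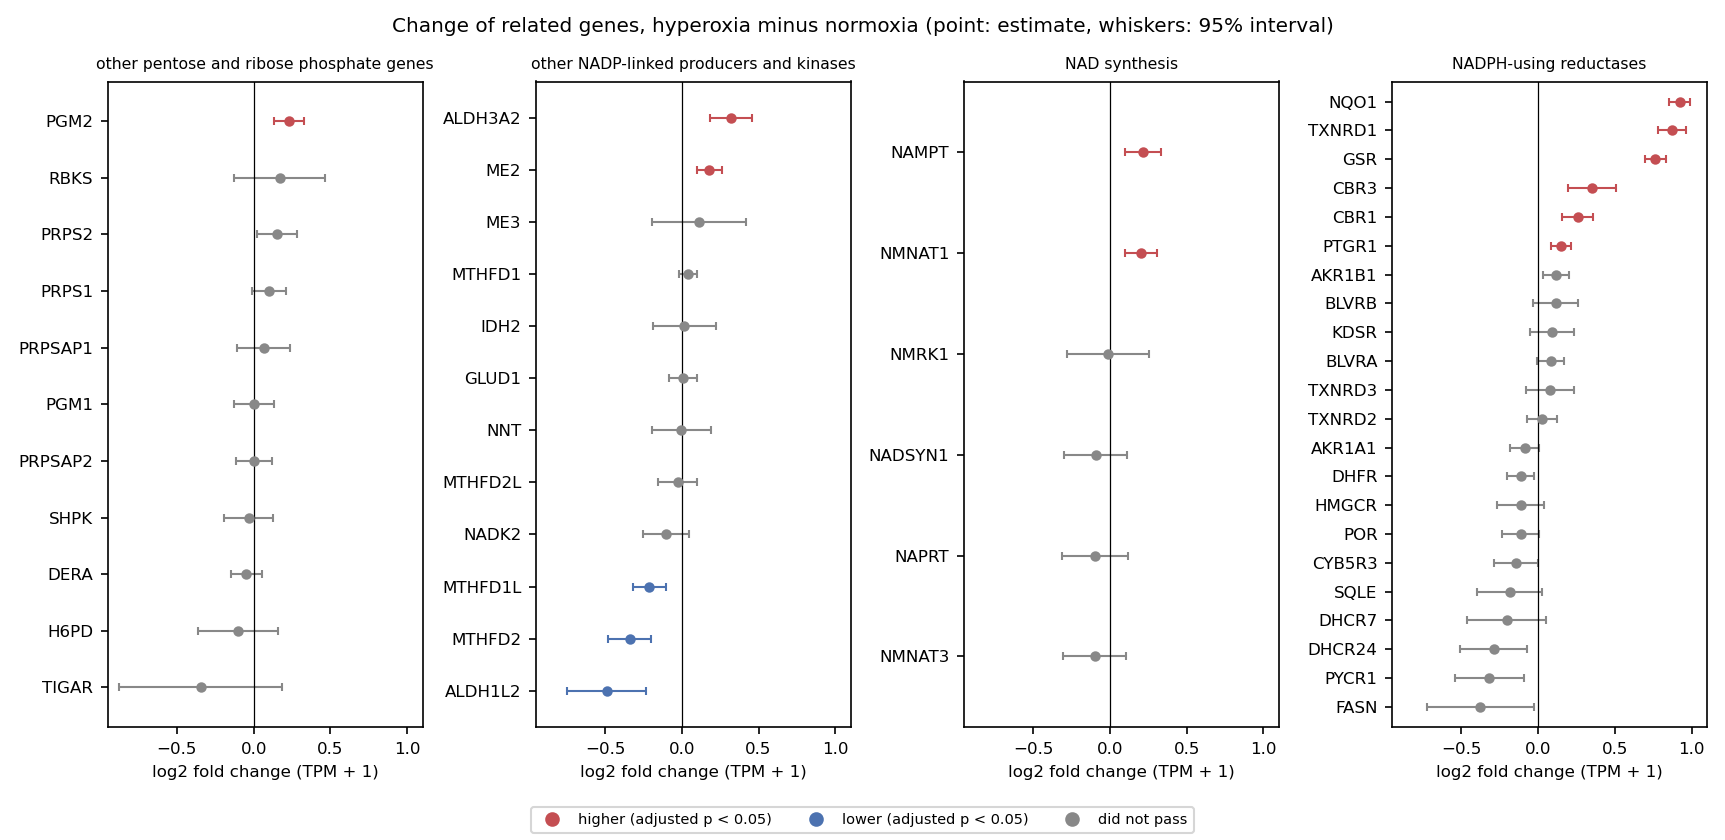
Log2 change of TPM + 1, hyperoxia minus normoxia, with 95% intervals, for every tested gene of the 4 lists (n = 6 per group; red: higher, blue: lower, grey: did not pass). NQO1, TXNRD1 and GSR stand far to the right, at 0.76 to 0.92, while the pentose and ribose phosphate genes other than PGM2 did not pass.

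For the 3 called members the genes with the most similar pattern were sought by the root mean square difference of centred log2(TPM + 1) over the 12 samples. The search and its medians covered the tested genes whose symbol has no dot and does not start with LOC. TKT was nearest to GRINA (0.049), C9orf16 (0.061) and MCOLN3 (0.062), beside a median of 0.202. TALDO1 was nearest to SLC35G1, CLTB and PSMD4 (0.034 to 0.035, median 0.152). ME1 was nearest to TRIM16 (0.073), MCOLN3 (0.087) and FLCN (0.088, median 0.220). MCOLN3 stood among the nearest 3 of both TKT and ME1. None of the 9 members was among the nearest genes of another.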

How the data were processed

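The members and gene lists were chosen with earlier results of these data known. The authors counted reads with HTSeq 0.9.1 and used edgeR 3.16.5, per the submitters' processing notes. The notes name a mouse build although all identifiers are human, so no coordinates were taken from the table. The labels and the design text name different library kits. Not given in the sources used here are the aligner, the annotation and how TPM was computed. The deposited values are TPM per sample, per the file headers; the table's name says FPKM, but each sample sums to between 996138 and 998797, and they were used as TPM. Also deposited are the authors' fold change (a ratio), the log2 of that fold, and p-values before and after adjustment.

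From the TPM, log2(TPM + 1) was fitted for all genes with a mean of at least 1 TPM with limma 3.58.1 (R 4.3.3; eBayes with trend, two-sided), with Benjamini-Hochberg adjustment and a threshold of 0.05. Groups came from the treatment labels. An exact two-sided permutation test (924 arrangements, smallest p 0.00216), other scalings, filters and left-out samples were alternatives. The script was checked on simulated data. It called 25.4% of simulated log2 changes of 0.25, 67.2% of those of 0.5 and 92.4% of those of 1. A gene that did not pass is therefore not shown to be unchanged. In the simulation 200 of 14520 genes were changed, whereas 2516 were called in the data, and noise was drawn separately for each gene. The shares are averages over genes of all levels and need not hold for these 9. All 9 members were named. From each list, up to 4 genes with the smallest p were named, with paralogs of members, and the 3 genes most like each called member. TPM keeps no depth, so no counting intervals are given. Rows whose deposited values disagree stayed in the test.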

Additional observations from a re-analysis of the deposited data

Results flagged for a closer look

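Of 54 groups of 6 samples checked for a sample far from the others, 1 had one. The summed level of PGLS and PGD in normoxia replicate 3 was 206.55 TPM, while the other 5 normoxia samples lay between 232.2 and 246.2 TPM. Its gap to the nearest sample was 0.647 of the group's range, above the critical value of 0.625. Chance alone marks about 1 in 20 such groups. This replicate also had the lowest normoxia level of PGLS, PGD, TKT and TALDO1. Without it the log2 change of PGLS was -0.05 (limma adjusted p = 0.655).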

How the results depend on the processing

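The counts and the genes named by rule were recomputed under 26 settings (25 for ME1, RPE and H6PD), and the branch difference without each sample and by medians. ALDH1L2, CBR3, PTGR1, MTHFD2L and FASN, named after their values were seen, were not recomputed. TALDO1 kept its call in all of them, TKT in 25 and ME1 in 12, and IDH1 gained one in 8. ME1 was not called against normoxia samples 1 to 3 or 4 to 6 alone (limma adjusted p = 0.147 and 0.148), where fewer samples enter. The number of members lower was 0 and became 1 (IDH1) under median-of-ratios scaling, upper-quartile scaling, quantile normalisation, sample weights and the replicate block. Without 1 sample it was 0 to 1. Members higher became 1 against normoxia samples 4 to 6 alone. All genes lower came to 1277 (median-of-ratios) and 1340 (upper-quartile). Against normoxia samples 1 to 3 alone, 1000 genes were higher and 375 lower, and against samples 4 to 6 alone, 788 and 443. The NAD synthesis genes higher fell to 0 in both, and the other NADP-linked genes higher to 1 against samples 1 to 3. NADPH-using reductases lower, 0 at first, came to 1 (pseudocount 0.1), 2 (minimum 5 TPM), 6 (median-of-ratios), 6 (upper-quartile), 5 (quantile), 3 (sample weights), 2 (replicate block) and 0 to 3 without 1 sample; here 0 to 3 covers normoxia replicate 3 (3) and hyperoxia replicates 1 (1), 4 (2) and 6 (3). The cause was not tested. The branch difference, -0.0938, became 0.007211 by medians.

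Signs changed only in genes with no call. PGLS (0.0077) became -0.02264 (median-of-ratios), -0.02947 (upper-quartile), -0.02803 (quantile), -0.01563 (sample weights), -0.02301 (normoxia 4 to 6), and -0.05146 to 0.04697 without 1 sample, being -0.05146, -0.02628 and -0.02739 without normoxia 3, hyperoxia 4 and hyperoxia 6. IDH2 (-0.02882 to 0.07731 without 1 sample) became -0.007926 (median-of-ratios), -0.01382 (upper-quartile), -0.02541 (normoxia 1 to 3), and -0.02718, -0.001531, -0.02882 and -0.008802 without normoxia 3, normoxia 5, hyperoxia 4 and hyperoxia 6. NADK (-0.04453) and ME3 (-0.001405) turned against normoxia 4 to 6.

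Same-numbered samples were not especially alike. Their correlations ran from -0.117 to 0.0169, and 0 of 6 samples correlated best with their own number. Low correlations cannot exclude that same-numbered samples were handled together. With the replicate block 1656 genes were higher and 889 lower, and of the members 4 were higher and 1 lower (PGD and IDH1 gained calls, limma adjusted p = 0.0366 and 0.0434). TPM carries no depth, so counting error could not be given.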

Other observations

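FASN, the fatty acid synthase that consumes NADPH, was named after its values were seen. It ran from 183.1 to 243.1 TPM in normoxia. In hyperoxia it was 195.1, 220.2 and 227.7 TPM in replicates 1, 4 and 6, within the normoxia range, and 124.7, 122.2 and 132.6 TPM in replicates 2, 3 and 5, below it. IDH1 had the same division of the hyperoxia samples. The log2 change of FASN was -0.38 (limma adjusted p = 0.130).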
